A study of Mus musculus with 6 samples.

Results

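The genes described here are 34 genes of macrophages and monocytes, taken as a list by name and read from every non-control probe that carried the name of a member. All 34 were found among the 27195 named genes of the array, on 58 of its 56605 non-control probes. They are Csf1r, Adgre1, Cd68, Lyz2, Ptprc, C1qa, C1qb, C1qc, Mrc1, Msr1, Fcgr1, Fcgr2b, Fcgr3, Fcer1g, Tyrobp, Trem2, Cd14, Cx3cr1, Ccr2, Laptm5, Aif1, Mpeg1, Spi1, Irf8, Ctss, Cd163, Marco, Clec7a, Clec4d, Clec4e, Cybb, Cd53, Cd52 and Coro1a. Macrophages and monocytes are phagocytes of the haematopoietic lineage. They depend on the growth factor receptor encoded by Csf1r and on the transcription factors PU.1 (Spi1) and IRF8, and they take up particles through Fc, lectin and scavenger receptors that signal in part through the adaptors Tyrobp and Fcer1g. In bone marrow they lie beside the stromal cells and adhere to culture plastic as stromal cells do.

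The study profiled bone marrow stromal cells (BMSCs), the adherent non-haematopoietic cells of the marrow, from wild-type mice (WT, 3 samples) and from mice with a knockout of the long non-coding RNA gene NONMMUT002667 (KO, 3 samples). Per the labels, crushed femurs were digested with collagenase, a sort kept the cells with Sca-1 and CD29 on their surface and without CD45 or CD11b, and those cells were then cultured and passaged. Both groups had the same sort and culture, and no treatment is named for either. The mice's strain and age, how the gene was disrupted and how many animals each sample held are not given in the sources used here, so the p-values below measure only the spread among these samples, which may be technical.

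Each sample was hybridised to 1 single-colour Agilent array, and levels are given as the log2 signal relative to that array's 75th percentile. A share of 54.3% to 56.7% of spots was well above background on the WT arrays and of 49.0% to 53.02% on the KO arrays. The labels conflict: human blood is named in the sample descriptions and the RNA extraction text, and mouse BMSCs in the titles, the organism field and the design text, which were followed. Every sample is labelled male, yet Xist, a transcript of female cells, was detected above background on WT replicate 3 and KO replicate 1 (-0.53 and -0.36) and not on the other 4 arrays (-6.84 to -5.86). Without those 2 arrays, 0 members passed the adjusted threshold, 27 of 34 had a positive KO minus WT difference and the median difference was 0.13, against 0.14 with all arrays. All 6 arrays came from 1 slide, with the 3 WT arrays in its first row and the 3 KO arrays in its second by the array positions in the file headers, so row and genotype cannot be told apart. No probe carried the name of the knocked-out RNA, so the knockout was not checked on its target.

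Several probes of these genes show what was measured. The 60-base probes below were chosen because the first pair report the gene of the sorted-out antigen CD45 and the F4/80 antigen gene, and the last pair bind sequence from separate stretches of the genome, as a spliced transcript holds it. They are the array's own designs, with positions on mm9 from the files.
Ptprc: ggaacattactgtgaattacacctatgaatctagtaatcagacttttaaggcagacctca
Adgre1: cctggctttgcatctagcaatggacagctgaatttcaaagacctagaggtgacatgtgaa
Tyrobp: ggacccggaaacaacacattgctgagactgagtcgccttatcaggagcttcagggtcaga
Spi1: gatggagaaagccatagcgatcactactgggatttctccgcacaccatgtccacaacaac
The Ptprc probe lies at chr1:140010285-140010344 and the Adgre1 probe at chr17:57550221-57550280. The 60 bases of the Tyrobp probe are spread over 1728 bases of the genome (chr7:31200651-31202378), and those of the Spi1 probe over 13788 bases (chr2:90939665-90953452). Probes of Cd53 and Clec7a were likewise split, over 1095 and 1645 bases. No annotation of mm9 was used, so exons and UTRs were not assigned to the probes.

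The genes were detected throughout both groups. All 34 were well above background on all 3 WT arrays by their brightest probe, where 56.4% of all named genes were. On all 3 KO arrays 33 of 34 were, against 52.6% of named genes, and 33 were on all 6 arrays (background 52.6%). The exception was Ccr2, the receptor for the chemokine CCL2, which was well above background on 2 of 3 KO arrays. The signals of 31 members lay above the array's 75th percentile on every one of the 6 arrays, as did 30.1% of named genes. Across the members the level ran from -3.90 to 8.64 in WT with a median of 4.48, and from -3.60 to 8.76 in KO with a median of 4.61. Probes differ in brightness for the same amount of RNA, so these levels give no share of cells and no ranking of genes. In such bulk samples more cells of a type and more RNA per cell cannot be told apart.

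**Figure D1:**
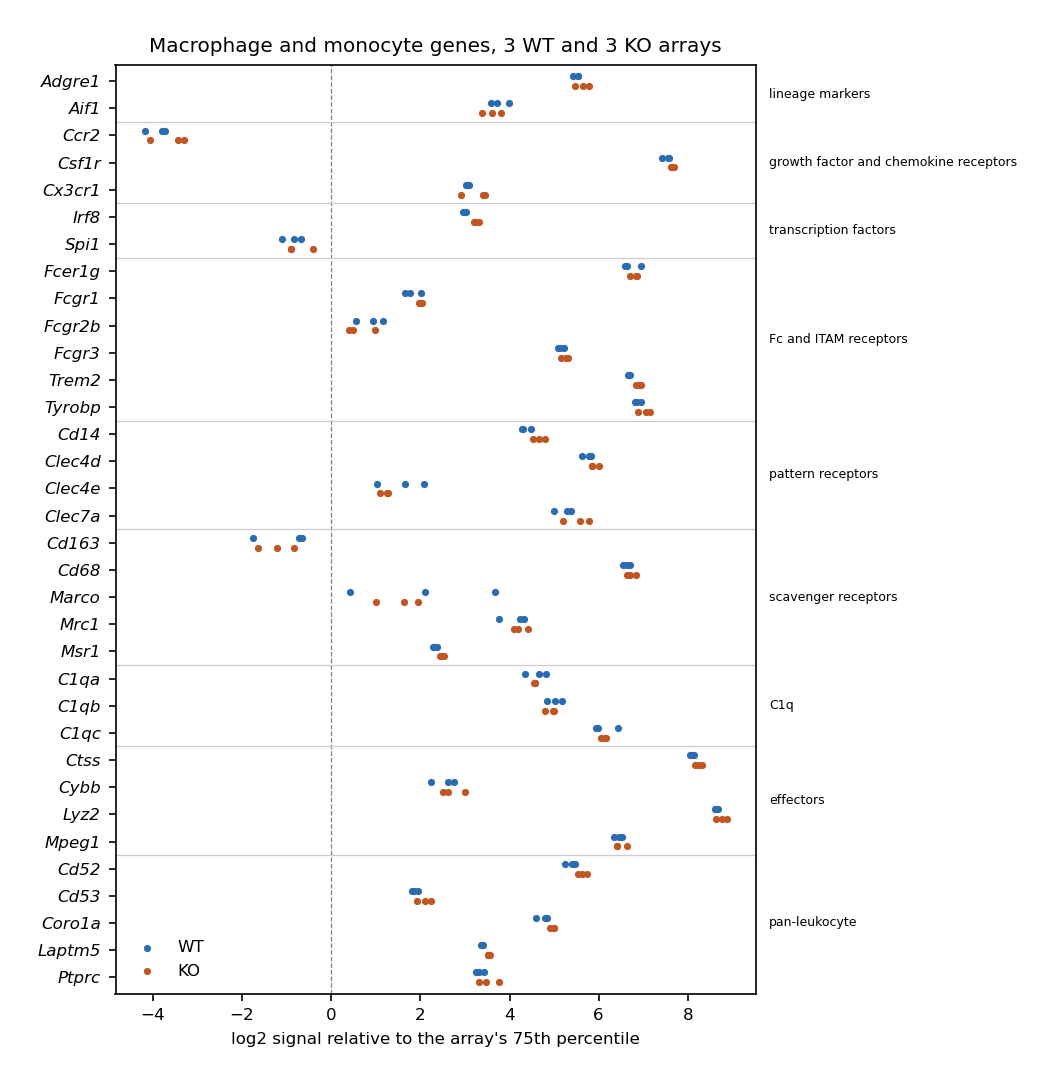
Level of each of the 34 genes by its brightest tested probe on 3 WT arrays (blue) and 3 KO arrays (orange), as log2 signal relative to the array's 75th percentile (x axis), with genes grouped by role (y axis); each point is 1 array. Lyz2 reaches 8.88, Ccr2 lies at -3.30 or below on all 6 arrays, Marco has the widest scatter, and for most genes the points of both groups lie close together.

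In the comparison of KO with WT, none of the 34 genes passed the test across all probes. In limma, which tests each probe with a variance moderated across probes, 0 of 34 had a Benjamini-Hochberg adjusted p under 0.05, where 0.0781% of the 15371 genes tested did, 12 in all. The members' adjusted p ran from 0.184 to 0.984. By the same limma fit, 5 members had an unadjusted p under 0.05 with a higher KO mean (Irf8, Cd14, Trem2, Cd52 and Coro1a; 6.94% of all genes tested), and 0 with a lower one (8.03% of all genes). With 1 array left out in turn, the count of 5 became 2 without WT replicate 2 or without KO replicate 2 and 3 without WT replicate 3. Without WT replicate 1 the count was 4, with Fcgr1 in it and Cd14 and Cd52 no longer so. At that p, 2 members then had a lower KO mean. Without KO replicate 1 the count was again 5, with Ccr2 and Cx3cr1 in place of Cd52 and Coro1a. Under the other alternatives the count with a higher KO mean was 3 on the deposited table, with no filter on dim probes and without the 2 arrays with Xist signal. It was 8 when the variance followed a trend with signal, 9 when each gene's probes were averaged, and from 4 to 6 in the rest. Without the 2 arrays with Xist signal the 3 were Cd14, Ccr2 and Cx3cr1, so of the 5 named above only Cd14 remained.

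The differences were small and mostly of 1 sign. The KO mean was above the WT mean for 27 members, against 55.8% of all genes tested, and the median log2 difference was 0.14, against 0.02 for all genes. All 3 KO values lay above all 3 WT values for 10 members (Trem2, Ctss, Csf1r, Cd52, Coro1a, Laptm5, Cd14, Clec4d, Msr1 and Irf8), as they did for 12.0% of all genes, and 0 members showed the opposite separation (10.4% of all genes). The largest fold between group means was 1.44, for Marco. For 33 of 34 members the limma 95% interval of the difference lay within a log2 difference of 1 in either direction, and the exception was Marco with -2.35 to 1.29. The members' median SD within a group was 0.13, the same as over all genes at that precision, and 23 of 34 members had an SD under 0.2. The counts moved little with the scaling: between 25 and 28 members had a positive difference in every alternative run, and the median difference stayed between 0.11 and 0.16.

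**Figure D2:**
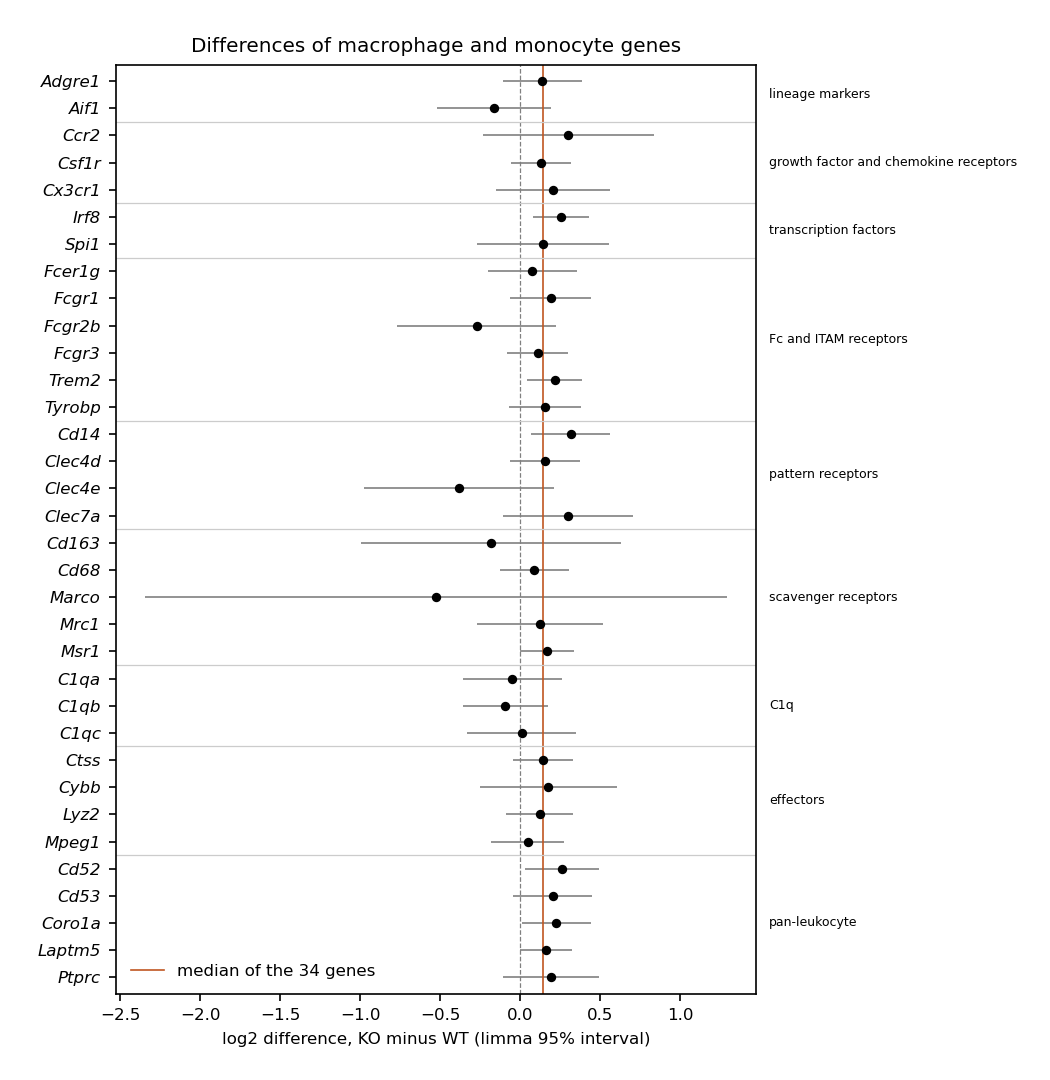
KO minus WT difference in log2 signal for each of the 34 genes (points) with its limma 95% interval (bars) over 3 arrays a group, grouped by role; the dashed line marks 0 and the orange line the members' median of 0.14. The points of 27 genes lie to the right of 0, and the interval of Marco is the widest, from -2.35 to 1.29.

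Adgre1 and Aif1, the members grouped as lineage markers, did not separate the groups. The other macrophage markers Csf1r, Cd68 and Ptprc are described with their own role groups below. Adgre1 encodes F4/80, the classical surface antigen of mouse macrophages (brightest probe at chr17:57622843-57622902, mm9). Its levels were 5.42, 5.54 and 5.53 on the WT arrays and 5.46, 5.79 and 5.66 on the KO arrays. The groups overlapped, and KO exceeded WT by 0.14 ± 0.10 in log2 (SE; limma adjusted p = 0.577). The dimmer Adgre1 probe printed above gave -1.22, -1.31 and -1.56 in WT and -1.48, -1.12 and -1.73 in KO, a difference of -0.08 with the opposite sign. Aif1, which encodes the actin-binding protein IBA1, read 3.73, 3.99 and 3.57 in WT and 3.60, 3.82 and 3.38 in KO. Its groups overlapped too, with a difference of -0.16 ± 0.15 (SE; limma adjusted p = 0.66).

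Among receptors for growth factor and chemokines, the brighter Csf1r probe placed all KO arrays above all WT arrays by a narrow margin. Csf1r encodes the receptor for CSF1 and IL-34 (chr18:61290725-61290784, mm9), and its levels were 7.42, 7.59 and 7.56 in WT and 7.69, 7.64 and 7.62 in KO. The difference was 0.13 ± 0.08 (SE; limma adjusted p = 0.486), while the second, dimmer Csf1r probe had -0.30 ± 0.18 (SE; limma adjusted p = 0.487) with overlapping groups. Cx3cr1, the fractalkine receptor of monocytes and tissue macrophages, read 3.05, 3.08 and 3.02 in WT and 2.91, 3.40 and 3.45 in KO. KO replicate 1 lay below all WT arrays and the other KO arrays above them, for a difference of 0.21 ± 0.15 (SE; limma adjusted p = 0.568). A second Cx3cr1 probe separated the groups, with 0.04, -0.11 and -0.01 in WT against 0.31, 0.28 and 0.69 in KO (difference 0.45 ± 0.13, SE; limma adjusted p = 0.178). Ccr2, at -3.72, -3.80 and -4.19 in WT and -4.06, -3.44 and -3.30 in KO, had overlapping groups near the detection limit (difference 0.30 ± 0.22, SE; limma adjusted p = 0.581). Leaving out 1 array in turn moved the Ccr2 difference between 0.15 (without KO replicate 3) and 0.53 (without KO replicate 1; limma adjusted p = 0.223).

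Both transcription factors of the list were detected, and Irf8 had the lowest adjusted p of the members. Irf8 directs progenitors towards monocytes and dendritic cells (chr8:123280324-123280383, mm9), and its levels were 3.00, 3.03 and 2.97 in WT and 3.24, 3.32 and 3.20 in KO. All KO values lay above all WT values, with a difference of 0.25 ± 0.07 (SE; 95% interval 0.08 to 0.43; limma adjusted p = 0.184), a fold of 1.19. A second Irf8 probe gave a difference of 0.30 (limma adjusted p = 0.329) with groups that overlapped. Spi1, whose protein PU.1 is required for the myeloid lineage, read -0.69, -1.11 and -0.83 in WT and -0.41, -0.90 and -0.89 in KO. Its groups overlapped (difference 0.14 ± 0.17, SE; limma adjusted p = 0.752), and without KO replicate 1 the difference was -0.02.

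The promoters of the members were searched for GAGGAA, the core of the PU box to which PU.1 binds, and for its reverse complement TTCCTC. RefSeq promoter windows (GRCm38.p6) of 300 bases, from 250 before to 50 after the gene's start, were found for 26 members in 31 windows, and 8 members had none in the table. Either form was present in 19 of the 31 windows (61.3%), for 17 of the 26 genes, against 9289 of all 32851 windows (28.3%). The stretches below are the 100 bases before the start of 5 members that hold the motif near it. Each is written on the gene's strand with the motif in capitals.
C1qb: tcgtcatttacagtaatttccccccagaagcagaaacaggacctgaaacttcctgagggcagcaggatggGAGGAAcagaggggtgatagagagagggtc
Trem2: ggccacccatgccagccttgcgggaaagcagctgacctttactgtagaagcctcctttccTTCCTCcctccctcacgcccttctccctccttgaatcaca
Fcgr1: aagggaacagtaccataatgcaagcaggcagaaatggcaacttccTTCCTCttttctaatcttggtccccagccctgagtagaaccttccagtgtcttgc
Cd53: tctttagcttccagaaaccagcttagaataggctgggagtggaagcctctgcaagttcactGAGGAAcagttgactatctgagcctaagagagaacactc
Laptm5: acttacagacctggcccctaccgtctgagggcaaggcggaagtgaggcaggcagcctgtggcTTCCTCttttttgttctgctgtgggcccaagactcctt
Their positions are chr4:136886201-136886300 (C1qb, minus strand), chr17:48346301-48346400 (Trem2, plus strand), chr3:96293970-96294069 (Fcgr1, minus strand), chr3:106790150-106790249 (Cd53, minus strand) and chr4:130913216-130913315 (Laptm5, plus strand). The motif begins 30, 40, 55, 39 and 38 bases before the start, in that order. A match of these 6 letters is a description of the sequence and does not show binding, and the arrays hold no measurement of it.

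Fc receptors and the receptors that signal through ITAM adaptors formed the largest role group, with 5 of 6 differences positive, a median of 0.13 and 0 of 6 past the adjusted threshold. Trem2, a lipid-sensing receptor that pairs with Tyrobp, read 6.68, 6.65 and 6.70 in WT and 6.90, 6.95 and 6.83 in KO. Its groups did not overlap and its arrays varied little, with a difference of 0.22 ± 0.07 (SE; 95% interval 0.04 to 0.39; limma adjusted p = 0.235). Fcgr1, the high-affinity IgG receptor, read 2.01, 1.76 and 1.65 in WT and 1.96, 2.04 and 1.99 in KO. The KO arrays clustered at the top of the WT range, with a difference of 0.19 ± 0.11 (SE; limma adjusted p = 0.45). The adaptor genes Tyrobp and Fcer1g and the activating receptor gene Fcgr3 had overlapping groups, with differences of 0.15, 0.08 and 0.11. Fcgr2b, the inhibitory IgG receptor, had the negative difference of this group at -0.27, with 0.94, 1.17 and 0.55 in WT and 0.40, 0.97 and 0.48 in KO, and its second probe gave -0.29. Its values are given because the gene differed in sign from the other 5, a choice made after its values were seen.

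Among the pattern-recognition receptors, Cd14 separated the groups on both of its probes. Cd14 encodes the co-receptor that hands lipopolysaccharide to TLR4 (chr18:36884727-36884786, mm9), and its levels were 4.30, 4.48 and 4.27 in WT and 4.53, 4.66 and 4.81 in KO. All KO arrays lay above all WT arrays, with a difference of 0.32 ± 0.10 (SE; 95% interval 0.07 to 0.56; limma adjusted p = 0.231), a fold of 1.25. The second Cd14 probe read 4.00, 4.01 and 3.85 in WT and 4.16, 4.23 and 4.35 in KO, and gave 0.29 ± 0.09 (SE; limma adjusted p = 0.199). Clec7a, the beta-glucan receptor dectin-1, read 5.01, 5.30 and 5.37 in WT and 5.78, 5.58 and 5.20 in KO. The KO arrays spread more widely than the WT arrays, and KO replicate 3 lay within the WT range (difference 0.30 ± 0.17, SE; limma adjusted p = 0.464). Clec4d, a C-type lectin that binds fungal and mycobacterial surfaces, had a difference of 0.15 with separate groups. Clec4e (Mincle), its neighbour on chromosome 6, had -0.38: the WT arrays read 1.03, 1.66 and 2.08, and the KO arrays 1.27, 1.1 and 1.26 (limma adjusted p = 0.524). Clec4e was singled out after its values were seen.

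The scavenger receptors had 3 of 5 differences positive, a median of 0.09 and 0 of 5 past the adjusted threshold. Cd68 encodes macrosialin, a glycoprotein of macrophage endosomes (chr11:69477775-69477834, mm9). It read 6.71, 6.54 and 6.64 in WT and 6.70, 6.84 and 6.62 in KO, with overlapping groups and a difference of 0.09 ± 0.09 (SE; limma adjusted p = 0.695). The other Cd68 probes gave 0.20 and 0.16, also with overlapping groups. Msr1, which encodes class A scavenger receptor, read 2.31, 2.37 and 2.29 in WT and 2.44, 2.53 and 2.49 in KO. Its groups did not overlap on this probe (difference 0.17 ± 0.07, SE; limma adjusted p = 0.332) or on a second one (0.23 ± 0.07, SE; limma adjusted p = 0.217). Mrc1, the mannose receptor, had a difference of 0.12 with overlapping groups.

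Marco, a scavenger receptor that binds bacteria, varied more between arrays of a group than any other member. It read 0.42, 2.09 and 3.67 on the WT arrays and 1.96, 1.63 and 1.01 on the KO arrays. The WT arrays thus enclosed all KO arrays, with a WT SD of 1.63 and a KO SD of 0.48, and the difference was -0.53 ± 0.76 (SE; limma adjusted p = 0.798). Leaving out 1 array in turn moved the Marco difference between -1.35 and 0.28. The stated position of the Marco probe covers 20 bases (chr1:122371115-122371134, mm9), a shorter stretch than for the other members' probes. Whether that bears on its scatter was not tested. Cd163, the haemoglobin scavenger receptor, read -0.65, -0.72 and -1.76 in WT and -1.63, -0.82 and -1.22 in KO, with a difference of -0.18 ± 0.34 (SE; limma adjusted p = 0.85). Marco and Cd163 were chosen for full values after these were seen.

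**Figure D3:**
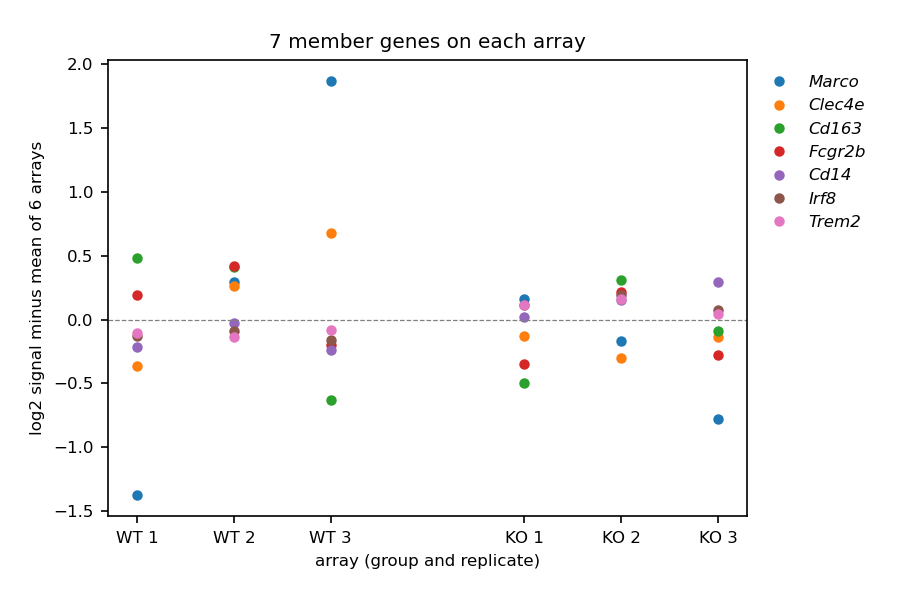
Log2 signal of 7 of the genes on each array minus that gene's mean over the 6 arrays (y axis), for WT 1 to 3 and KO 1 to 3 (x axis). Marco, Clec4e, Cd163 and Fcgr2b scatter within groups, while Cd14, Irf8 and Trem2 lie below 0 on the WT arrays and above 0 on the KO arrays.

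The C1q genes, whose 3 products form the recognition subunit of the classical complement pathway, lay near 0 together. Their probes fall within a short stretch of chromosome 4 in mm9 (C1qb at 136436578, C1qc at 136445766 and C1qa at 136452409, as start positions). C1qa read 4.82, 4.67 and 4.34 in WT and 4.58, 4.56 and 4.54 in KO. Its KO arrays lay within the WT range, with a difference of -0.05 ± 0.13 (SE; limma adjusted p = 0.899) that was 0.06 without WT replicate 1. C1qb read 5.18, 5.02 and 4.84 in WT and 4.97, 4.99 and 4.81 in KO, with overlapping groups (difference -0.09 ± 0.11, SE; limma adjusted p = 0.752). C1qc had 0.01 (limma adjusted p = 0.984). In all 3 genes WT replicate 1 was the highest array.

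Effector genes of the phagocyte had 4 of 4 differences positive, a median of 0.13 and 0 of 4 past the adjusted threshold. Ctss, the lysosomal protease cathepsin S that trims the invariant chain for antigen presentation, read 8.06, 8.05 and 8.14 in WT and 8.31, 8.22 and 8.15 in KO. The lowest KO array lay just above the highest WT array (difference 0.14 ± 0.08, SE; limma adjusted p = 0.447). Lyz2, the lysozyme gene of myeloid cells, read 8.67, 8.60 and 8.64 in WT and 8.88, 8.63 and 8.77 in KO. Its groups overlapped (difference 0.12 ± 0.09, SE; limma adjusted p = 0.569), and a second Lyz2 probe gave -0.16 ± 0.14 (SE; limma adjusted p = 0.655). Lyz1 is a close paralogue, and whether the Lyz2 probes also bind its transcript was not tested. Cybb, the catalytic subunit of the phagocyte oxidase, and Mpeg1, the pore-forming perforin-2, had differences of 0.18 and 0.05 with overlapping groups.

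The pan-leukocyte genes had 5 of 5 differences positive, from 0.16 to 0.26, with 0 of 5 past the adjusted threshold. Cd52, a small glycoprotein anchored in the leukocyte membrane, read 5.40, 5.24 and 5.47 in WT and 5.74, 5.62 and 5.53 in KO, with separate groups (difference 0.26 ± 0.10, SE; limma adjusted p = 0.272). Coro1a, an actin regulator of leukocytes, read 4.84, 4.60 and 4.80 in WT and 4.92, 5.01 and 4.99 in KO, again with separate groups (difference 0.23 ± 0.09, SE; limma adjusted p = 0.298). Laptm5, a lysosomal membrane protein of leukocytes, had a difference of 0.16 with separate groups, and the tetraspanin gene Cd53 one of 0.20 with overlapping groups.

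Ptprc encodes CD45, the antigen against which the cells had been sorted, and it was read by 7 probes, of which 5 could be tested. Its brightest probe (chr1:139960089-139960148, mm9) read 3.30, 3.43 and 3.24 in WT and 3.32, 3.75 and 3.48 in KO. On that probe the groups overlapped, with a difference of 0.20 ± 0.13 (SE; limma adjusted p = 0.519) that moved to 0.078 when KO replicate 2 was left out and to 0.29 when KO replicate 1 was. On each of the other 4 tested probes all KO arrays lay above all WT arrays. Over all genes tested, each read from its brightest tested probe, 12.0% showed that separation, and the share over all probes was not counted. The Ptprc probe printed above read 0.20, 0.45 and 0.65 in WT and 0.83, 0.86 and 1.09 in KO (difference 0.50 ± 0.14, SE; limma adjusted p = 0.171). The largest Ptprc difference was 0.52 ± 0.13 (SE; limma adjusted p = 0.138), at chr1:140068557-140068616. The probes share a gene and the same RNA samples and are not replicates of each other. Of the 2 untested Ptprc probes, 1 was never well above background and 1 was so on 1 WT array alone.

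**Figure D4:**
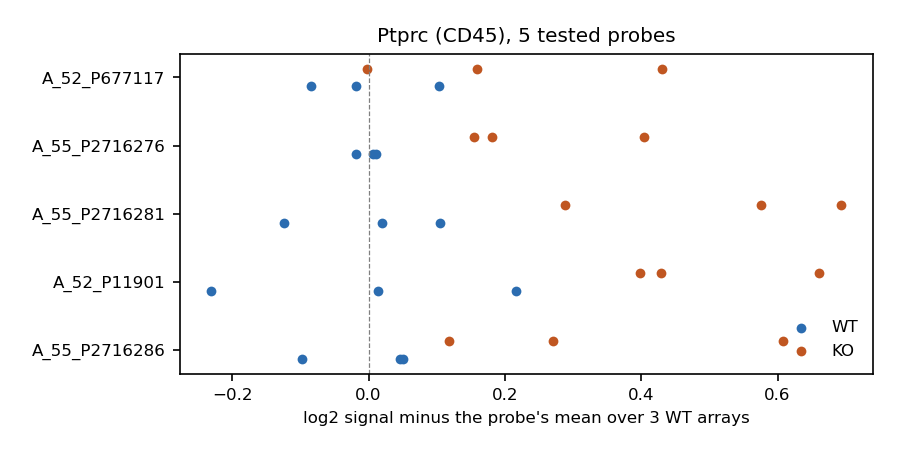
Signal of the 5 tested Ptprc (CD45) probes on each array as log2 signal minus the probe's mean over the 3 WT arrays (x axis), with probes on the y axis, WT in blue and KO in orange. On 4 probes the 3 KO arrays lie to the right of all WT arrays, and on the brightest probe, at the top, the groups overlap.

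The member probes were also counted singly, so that a gene with several probes entered more than once. Of the 52 tested probes, 0 passed the adjusted threshold in limma (0.0594% of all 28606 tested probes did, 17 in all), and the lowest adjusted p was 0.138. An unadjusted limma p under 0.05 was found for 12 probes, all with the higher mean in KO, where 8.24% of all tested probes had that. The 12 held several probes of Ptprc and both of Cd14, which are not independent. Ptprc, Cx3cr1 and Msr1 were among them only by dimmer probes and not by their brightest. Of 14 members with several tested probes, 3 had probes that differed in sign (Csf1r, Lyz2 and Adgre1). The other 6 member probes were not tested because they were not well above background on all arrays of either group.

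Sorting had been against CD45 and CD11b and for Sca-1 and CD29. Besides Ptprc, the CD11b gene Itgam was detected on every array, at 4.02 ± 0.14 in the WT and 4.14 ± 0.10 in the KO group (SD, 3 arrays each; adjusted p = 0.615 by limma). A second, dimmer Itgam probe was at -2.43 in WT and -2.68 in KO, a difference of -0.25 with overlapping groups. The genes of the antigens selected for did not pass the test either, with log2 differences of -0.09 for Ly6a (Sca-1; adjusted p = 0.911 by limma) and -0.08 for Itgb1 (CD29; adjusted p = 0.766 by limma). On a second Itgb1 probe all KO arrays lay below all WT arrays, with a difference of -0.18 (adjusted p = 0.381 by limma). The arrays read RNA of the cultures after passage and do not measure surface protein at the sort.

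Related genes outside the 34 were read from lists of the same pathways, and none of these lists held a gene past the adjusted threshold. All 10 other myeloid transcription factors were detected on all 6 arrays and had positive differences with a median of 0.11; the lowest adjusted p was that of Irf5, an activator of inflammatory genes, at 2.39 ± 0.12 in the WT and 2.70 ± 0.10 in the KO group (SD, 3 arrays each; adjusted p = 0.21 by limma). Of 11 genes of ITAM signalling, 10 had positive differences (median 0.13), and of 5 oxidase genes 4 did (median 0.15). Among 6 tested colony-stimulating factor receptors and ligands 5 were positive (median 0.18), with Csf2ra, the GM-CSF receptor's alpha chain, at 5.21 ± 0.19 in the WT and 5.52 ± 0.09 in the KO group (SD, 3 arrays each; adjusted p = 0.28 by limma). Other macrophage surface genes were positive in 16 of 26 (median 0.12), lysosomal genes in 10 of 11 (median 0.096), other pan-leukocyte genes in 8 of 9 (median 0.18) and inflammatory mediators in 6 of 9 tested (median 0.053). Of these mediators, 2 had all KO above all WT values (12.0% of all genes) and 2 all KO below (10.4%). Their differences ran from -1.08 to 0.50. Ptgs2 was among the lower ones, with a difference of -0.86 (adjusted p = 0.209 by limma). Among the surface genes, Cd180, a TLR4-like receptor, had the lowest adjusted p by brightest probe (0.121 by limma). That probe was at 1.19 ± 0.07 in the WT and 1.58 ± 0.10 in the KO group (SD, 3 arrays each). Other Cd180 probes gave differences of 0.49 and 0.34 with separate groups (adjusted p = 0.0833 and 0.296 by limma). A further one gave 0.18 with overlapping groups (adjusted p = 0.622 by limma).

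Markers of other cell types were read on the same arrays. Of 15 stromal markers, 11 had a lower KO mean, with a median difference of -0.16, and 0 passed the adjusted threshold in limma. All KO values lay below all WT values for 6 of them (10.4% of all genes) and above for 1 (12.0%). Nt5e had the list's lowest adjusted p, with a difference of -1.21 (adjusted p = 0.0932 by limma), and Dcn had -1.05 (adjusted p = 0.161 by limma). Both had separate groups. Col1a1, the main collagen of bone, was at 8.14 ± 0.06 in the WT and 7.24 ± 0.47 in the KO group (SD, 3 arrays each; adjusted p = 0.141 by limma) on its brightest probe, with separate groups. On the other Col1a1 probes tested the difference was -0.21 and -0.14, with overlapping groups. Summed over their brightest probes as linear signal relative to the 75th percentile, the stromal markers came to 780 to 836 on the WT arrays and 425 to 639 on the KO arrays. The same sum over the 34 macrophage and monocyte genes was 1827 to 1869 on the WT arrays and 1940 to 2083 on the KO arrays. The ranges did not overlap for either list. They were also separate, with KO higher, for other macrophage surface genes, ITAM signalling, other myeloid transcription factors and other pan-leukocyte genes. The same held for dendritic markers and for erythroid and megakaryocyte markers, and the ranges overlapped for the rest of the lists. How often sums over other genes separate was not counted. Bright probes weigh most in a linear sum, among them those of Col1a1 for the stromal markers and of Lyz2 and Ctss for the members. The part of the stromal signal in the members' differences was not tested.

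Among markers of lymphocytes, Cd3g, Cd8a, Cd2, Cd79a, Ncr1 and Nkg7 were not well above background on any of the 6 arrays. Cd4, Cd3e and Cd79b of the same list were so on all 6 arrays. Their means were 2.19, 0.32 and -0.44 in WT and 2.34, 0.29 and -0.66 in KO. For dendritic cells 5 of 8 were never well above background (Zbtb46, Cd209a, Xcr1, Clec9a and Ccr7), with sums of 126 to 142.1 in WT and 145 to 151.4 in KO. Siglech, Itgax and Flt3 had means of 6.91, 3.44 and -4.18 in WT and 7.04, 4.04 and -4.10 in KO. Siglech thus made up most of each sum. For neutrophils 2 of 11 were never well above background (Retnlg and Cxcr2), with sums of 11 to 12.2 in WT and 10.3 to 19.1 in KO, and the highest value was on KO replicate 2. KO replicate 2 was also the array on which the most members, 29 of 34, lay above their own mean over the 6 arrays. The median deviation of the 34 genes from those means was -0.088, -0.055 and -0.090 on WT replicates 1 to 3 and 0.042, 0.141 and -0.0038 on KO replicates 1 to 3. The part of KO replicate 2 was read by leaving it out, after which 25 of 34 differences were positive and the median was 0.11.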

How the data were processed

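Total RNA of 6 samples was read on 1-colour Agilent arrays with 62976 spots. The deposited intensity values are the background-corrected processed signals of Feature Extraction 10.7.1.1 on mm9 probe positions, per the file headers, while the submitters' processing notes name version 9.1. The deposited series table holds log2 values whose columns correlated with their own arrays (r of at least 0.9999) and shared 1 distribution (median 6.15 in each). Whether that table was processed further is not stated.

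Groups and replicate numbers came from the sample titles. Outlier spots (49 to 131 an array) were left out, log2 signals were set against the array's 75th percentile over non-control spots, and repeated spots were averaged per probe. Probes entered the test if well above background, in at least a share of 0.5 of its spots, on all arrays of 1 group. The 28606 probes were fitted with limma 3.58.1 in R 4.3.3 (lmFit, eBayes, two-sided, with group alone in the model, 4 residual degrees of freedom and 2.65 prior ones), with Benjamini-Hochberg adjustment over all probes and a threshold of 0.05. A gene was read from its brightest tested probe, and levels and detection from its brightest probe. Names came from the RefSeq table of GRCm38.p6 (32994 probes by accession, 10224 by symbol, 520 by synonym; 2574 kept the file's name and 10293 had none). The fit was also run on simulated data with added changes larger than any member's difference, so that run does not bear on differences of the members' size.

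Members and lists were chosen with earlier results of these data known. Values on every array are given for the 4 markers, members with unadjusted p under 0.05 or not detected on an array, and up to 2 members a role with the smallest p. Of the other lists, up to 3 genes with the smallest p and the sort markers could be named. The lymphocyte list is not reported here in full. The number of arrays limits the precision. The same-numbered WT and KO arrays did not deviate together (r of 0.056, 0.15 and -0.032 across probes), so the numbers were not taken as pairs.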

Additional observations from a re-analysis of the deposited data

How the results depend on the processing

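In each of the 16 alternatives, 0 of the 34 genes and 0 genes of the other lists passed the adjusted threshold of limma, with a lowest adjusted p among members from 0.101 to 0.343. The number of probes called over the whole array, 17 in the main setting, was 101 with median centring, 28 with the percentile over probes well above background, 239 with normexp and quantile normalization, 0 with no filter on dim probes, 9 with a filter on all 6 arrays, 220 with a variance trend, 18 on the deposited table and 24 without the 2 arrays with Xist signal. With the replicate number as a block it was 0, and leaving out 1 array in turn gave 2 to 31. The cause of these shifts was not tested. Of the named members' differences, 315 kept their sign and their side of the threshold, and 4 changed sign: with 1 array left out, C1qa, at -0.05, ran from -0.18 (without WT replicate 3) to 0.058 (without WT replicate 1), and Spi1, at 0.14, from -0.020 (without KO replicate 1) to 0.24 (without WT replicate 1). Without both arrays with Xist signal C1qa was -0.19. Averaging each gene's probes gave Csf1r -0.087 and Lyz2 -0.019, against 0.13 and 0.12. No member was called with or without the replicate block, so it had no call of a member to change. A slide or scan block was not run because all arrays share 1 slide and 1 scan. Members near background, such as Ccr2, are limited by signal over background.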
